A study of Homo sapiens with 4 samples.

Results

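The chemokines CXCL1, CXCL2, CXCL3, CXCL5 and CXCL6, which attract neutrophils, were followed here in A549 cells, a human lung adenocarcinoma line, transfected to overexpress the microRNA gene let-7a-3 or left as the parental line. They were chosen by gene symbol, with their mean log ratios over the 4 arrays in view, and are 5 of the 12483 genes measured, represented by 6 of 26629 cDNA probes. CXCL8 was asked for by the same rule and was not analysed here. Total RNA of cultures grown in DMEM with fetal calf serum and given no treatment was amplified once with T7 RNA polymerase and labelled with Cy3 or Cy5. On each of the 4 two-colour arrays a let-7a-3 culture was set against a parental culture of the same line. Each array used its own pair of numbered RNA sources, and no source was labelled with both dyes. The lower-numbered source of the pair was in Cy3 on arrays 1 and 3 and in Cy5 on arrays 2 and 4. Dye orientation was read from this order, so the 2 orientations do not compare the same RNA. The control was the untransfected parent, so that transfection and let-7a-3 cannot be told apart, and the labels do not say whether the transfected cultures came from 1 clone. Nothing in the labels says that the cultures were separate transfections, so the error over arrays measures only the spread between these arrays.

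Every value below is a log ratio as deposited. Its logarithm base, its numerator channel and any turning of the dye-swapped arrays before deposit are unstated in the labels and the design text. A negative value therefore cannot be assigned to the let-7a-3 or to the parental culture, and no fold is given. With the sign turned, every value called negative would be positive. The mean over the 4 arrays is called the shared component. The part that changes sign with the dye orientation is called the alternating component and is given with the sign of arrays 1 and 3. Across probes, which are not independent replicates, Pearson's r was 0.43 between arrays 1 and 3 and 0.56 between arrays 2 and 4, and lay between -0.16 and 0.055 for the pairs of opposite orientation. Which component is the effect of let-7a-3 is not settled by the labels, so both are given.

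CXC chemokines carry a pair of cysteines separated by a single residue. Those with a Glu-Leu-Arg motif before the cysteines, among them all of the members, bind the receptor CXCR2 (CXCL6 also binds CXCR1) and draw neutrophils out of the blood. Airway and alveolar epithelial cells release them when interleukin 1, TNF or bacterial products activate the transcription factor NF-kB, which binds kappaB sites in their promoters. The mRNAs of several of them carry AU-rich elements and are short-lived. The genes arose by duplication and lie side by side on the long arm of chromosome 4, and CXCL1, CXCL2 and CXCL3 are close to each other in sequence. A cDNA clone of 1 of them can also bind transcripts of the others, so the assignment of a value to a single one of these genes is uncertain, and this was not tested.

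The microRNA gene that was overexpressed gives the mature strands below (RefSeq, GRCh38.p14, chromosome 22, plus strand, chr22:46112752-46112773 and chr22:46112800-46112820), shown because the 5p strand is the let-7a guide that defines the let-7 family. Capitals mark the seed, bases 2 to 8.
hsa-let-7a-5p: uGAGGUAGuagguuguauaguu
hsa-let-7a-3p: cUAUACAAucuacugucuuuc

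The promoters of the members are shown because all of them share the kappaB site through which NF-kB is known to act on this family. Each line gives the 120 bases before the RefSeq start site in GRCh38.p14, 5′ to 3′ on the gene's strand. Capitals mark GGGAATTTCC. The windows are chr4:73869273-73869392 (CXCL1, plus strand), chr4:74099196-74099315 (CXCL2, minus), chr4:74038690-74038809 (CXCL3, minus), chr4:73998678-73998797 (CXCL5, minus) and chr4:73836558-73836677 (CXCL6, plus).
CXCL1: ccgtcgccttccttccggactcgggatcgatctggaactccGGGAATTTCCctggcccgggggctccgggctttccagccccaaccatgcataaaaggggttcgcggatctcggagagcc
CXCL2: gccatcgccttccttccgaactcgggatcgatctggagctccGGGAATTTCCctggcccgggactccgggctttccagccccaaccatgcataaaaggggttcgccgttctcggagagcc
CXCL3: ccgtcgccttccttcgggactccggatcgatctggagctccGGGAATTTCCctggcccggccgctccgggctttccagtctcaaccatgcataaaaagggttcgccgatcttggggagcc
CXCL5: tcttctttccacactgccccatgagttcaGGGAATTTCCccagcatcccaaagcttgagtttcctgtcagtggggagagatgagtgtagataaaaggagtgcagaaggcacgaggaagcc
CXCL6: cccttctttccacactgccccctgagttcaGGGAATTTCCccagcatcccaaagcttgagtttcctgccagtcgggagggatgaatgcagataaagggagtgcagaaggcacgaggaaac

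The site begins 79, 78 and 79 bases before the start in CXCL1, CXCL2 and CXCL3, and 91 and 90 bases before it in CXCL5 and CXCL6. Each promoter holds it 1 time. By the 250 bases upstream, aligned end to end, the members fall into 2 kinds. CXCL5 and CXCL6 were identical at 85.3% of aligned positions, CXCL1 and CXCL3 at 81.4%, CXCL2 and CXCL3 at 73.4%, and CXCL1 and CXCL2 at 70.1%. Pairs across the kinds lay between 52.3% and 54.2%. The letters GGGAATTTCC, searched on both strands after they had been seen in the members, occur in 51 of 35116 promoters of 300 bases (0.145%) from 250 before to 50 after the start. The looser kappaB consensus, which includes these letters, occurs in 11.3% of them. A match is a description of the letters and does not show that NF-kB bound there.

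CXCL1, CXCL3 and CXCL5 had negative log ratios on all 4 arrays, while CXCL2 and CXCL6 had both signs and means near 0. These are the values that chose the members, so they are described, and no test of them is given. CXCL1, known as GRO alpha, stood at -0.45 on array 1, -0.59 on array 2, -0.45 on array 3 and -0.36 on array 4 (mean -0.46 ± 0.10, SD, n = 4). All 4 values are low, array 2 lowest, and the dye orientations overlap. In bulk RNA, a difference in the number of cells that express a chemokine and a difference in its RNA per cell cannot be told apart, whichever culture was higher.

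CXCL3, known as GRO gamma, stood at -0.47, -0.31, -0.56 and -0.28 on arrays 1 to 4 (mean -0.41 ± 0.13, SD, n = 4). Arrays 1 and 3 were lower than arrays 2 and 4, with no overlap between the orientations. CXCL2, known as GRO beta, stood at -0.07, 0.09, -0.19 and 0.16 (mean 0.00 ± 0.16), so that it was negative on arrays 1 and 3 and positive on arrays 2 and 4. CXCL2 followed CXCL3 from array to array at a nearly constant distance, with the smallest SD of all pairs of members and with no test. Both were lower on arrays 1 and 3 than on arrays 2 and 4, so they also moved together with the dye orientation. The CXCL2 value exceeded the CXCL3 value by 0.36 to 0.44 (mean difference 0.40 ± 0.03). CXCL2 also exceeded CXCL1 on all 4 arrays, by a mean of 0.46 ± 0.19 (CXCL1 minus CXCL2 lay between -0.68 and -0.25).

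CXCL5, known as ENA-78, was represented by 2 clones. Clone 1 stood at -0.51, -0.19, -0.14 and -0.33 on arrays 1 to 4 (mean -0.29 ± 0.17, SD, n = 4), and clone 2 at -0.49, -0.41, -0.54 and -0.21 (mean -0.41 ± 0.14). Both clones were negative on every array and nearly equal on array 1, and they lay farthest apart on array 3. Averaged over its clones, CXCL5 stood at -0.50, -0.30, -0.34 and -0.27 (mean -0.35 ± 0.10).

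CXCL6, known as GCP-2 and the closest relative of CXCL5 in its promoter, stood at 0.03, -0.07, 0.21 and -0.36 on arrays 1 to 4 (mean -0.04 ± 0.24, SD, n = 4). It was positive on arrays 1 and 3 and negative on arrays 2 and 4, the reverse of CXCL2. CXCL5 lay below CXCL6 on 3 of 4 arrays (mean difference -0.31 ± 0.30, from -0.55 to 0.08), array 4 being the exception.

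**Figure D1:**
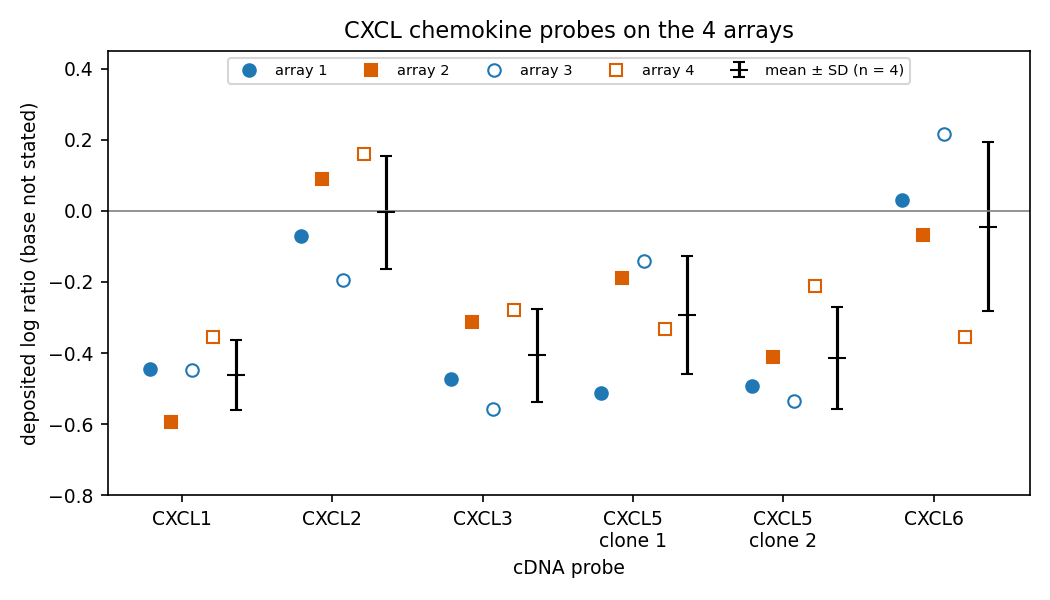
Deposited log ratio (vertical axis, base not stated) of the 6 chemokine probes on each array, blue circles for arrays 1 and 3, orange squares for arrays 2 and 4, and black bars for the mean ± SD over the 4 arrays. CXCL1, CXCL3 and both CXCL5 clones lie below 0 on all arrays, while CXCL2 and CXCL6 have 2 arrays on each side of 0 and mirror each other by dye orientation.

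Among all 12483 genes, 37 had a lower mean than CXCL1, 43 a lower one than CXCL3 and 59 a lower one than CXCL5, against 2784 for CXCL6 and 5385 for CXCL2. On single arrays the share of genes below CXCL1 was between 0.272% and 1.23%. That share was between 0.320% and 2.92% for CXCL3 and between 0.705% and 3.22% for CXCL5. CXCL6 ranged from 1.26% on array 4 to 92.0% on array 3, so its place in the list depended on the array. The median of the 5 members' means was -0.35, against 0.01 over all genes. Of the members, 3 were below 0 on all 4 arrays, where 6.94% of all genes were, and 3 of 5 (CXCL1, CXCL3 and CXCL5) were among the genes called negative in the fit over all genes, which were 1.41% of all genes. Both counts are given only beside that background. In the fit over probes CXCL5 clone 2 was called and clone 1 was not. Without moderation 0 of the members and 0 of all genes were called. The members were chosen on these values, so the counts are no test of them and nothing is read from them.

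The alternating component was not used to choose the members and was tested with limma over all genes. None of the 5 passed an adjusted p of 0.05, where 3.29% of all genes did. Before adjustment 3 of the 5 (CXCL2, CXCL3 and CXCL6) had a limma p under 0.05, where 25.6% of all genes had. CXCL6 stood at 0.17 ± 0.15 (SD, n = 4; limma adjusted p = 0.131), positive on 4 of 4 turned arrays. CXCL2 stood at -0.13 ± 0.06 (adjusted p = 0.121 in limma), negative on 4 of 4 turned arrays. CXCL3 was at -0.11 (adjusted p = 0.148 in limma), CXCL5 at -0.07 (adjusted p = 0.376) and CXCL1 at 0.01 (adjusted p = 0.883). Without array 1, CXCL6 stood at 0.21 and CXCL2 at -0.16, both larger in size than over the 4 arrays. Array 3 is then alone in its orientation, so no call is read from that fit. In CXCL1, CXCL3 and CXCL5 the alternating component was smaller in size than the shared one, and in CXCL2 and CXCL6 it was larger.

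**Figure D2:**
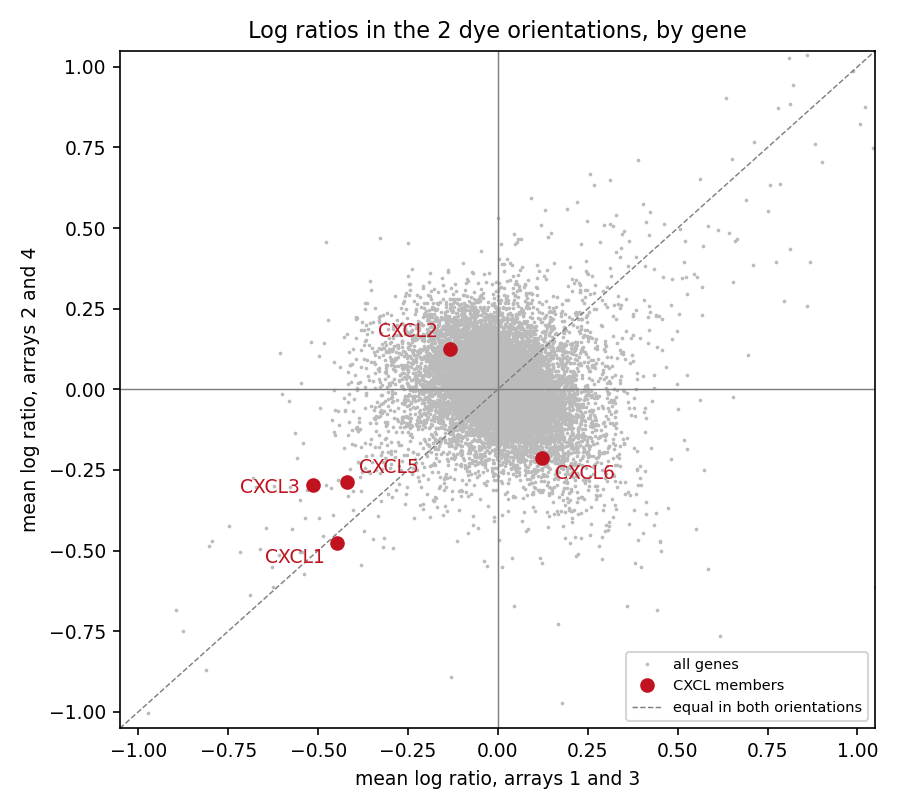
Mean log ratio on arrays 1 and 3 (horizontal axis) against that on arrays 2 and 4 (vertical axis) for all genes (grey) and the chemokines (red), with 20 genes outside the axes and a dashed line where both orientations are equal. CXCL1 (-0.45 and -0.48), CXCL3 (-0.52 and -0.30) and CXCL5 (-0.42 and -0.29) lie in the lower left, while CXCL2 (-0.13 and 0.12) and CXCL6 (0.12 and -0.21) lie on opposite sides of the cloud.

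The other genes of the pathway came from lists of 148 genes, 100 of them measured. In the shared component 1 was positive and 1 negative past an adjusted p of 0.05 in limma, together 2.00% of the 100, where 3.04% of all genes passed in either direction. Before adjustment 11 of the 100 had a p under 0.05, as had 14.6% of all genes. The lists are given below from ligands and receptors to transcription factors, targets and mRNA decay.

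Among other ligands, 8 of 12 further CXC and CX3C chemokines were measured and none passed in limma (before adjustment, 1 had p under 0.05), with a median of 0.00 and values from -0.10 to 0.07. PF4, the platelet chemokine CXCL4, lay between CXCL1 and CXCL5 in the gene order of chromosome 4 and stood at 0.04, -0.28, 0.08 and -0.24 on arrays 1 to 4 (mean -0.10 ± 0.18, SD, n = 4; limma adjusted p = 0.298). PPBP, the platelet chemokine CXCL7 and the next gene along, stood at -0.35, -0.01, -0.22 and 0.24 (mean -0.08 ± 0.26, adjusted p = 0.530). PF4 changed sign with the dye orientation, and PPBP was negative on 3 of 4 arrays. PF4 and PPBP thus lay between CXCL1 and CXCL5 in the gene order and closer to 0 than either, while CXCL5 and CXCL3 are next to each other. The order from CXCL6 was PF4V1, CXCL1, PF4, PPBP, CXCL5, CXCL3 and CXCL2. PF4V1 was not analysed here.

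Of 16 further genes around the cluster 9 were measured, and none passed in limma (before adjustment, 1 had p under 0.05; median 0.00). EREG, a ligand of the EGF receptor, had the highest value, 0.25, 0.01, 0.39 and 0.00 on arrays 1 to 4. Its mean was 0.16 ± 0.20 (SD, n = 4; limma adjusted p = 0.107), and without array 1 it was 0.20. ANKRD17 stood at 0.06 ± 0.07 (adjusted p = 0.544), averaged over 5 clones that ranged from -0.06 to 0.23. With the clone of largest mean in size per gene it passed in limma (0.23, adjusted p = 0.0366), where 4.87% of all genes passed. That clone was picked by the value then tested, so the pass is not separate evidence. With the median over clones ANKRD17 stood at 0.04 (limma adjusted p = 0.778).

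CXCR1 and CXCR2, the receptors of the members, were not analysed here. Of 9 listed receptors 4 were measured, with values from -0.06 to 0.05, and none passed in limma, also without adjustment (0 of 4). ACKR1, a decoy receptor on red cells and venules that binds the members, stood at 0.05 ± 0.17 (SD, n = 4; adjusted p = 0.634), and ACKR3, a decoy receptor of CXCL12, at -0.06 ± 0.07 (adjusted p = 0.572).

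The cytokines that induce the members, and their receptors, showed no called gene among 15 measured of 19 listed (0 in limma also without adjustment), with values from -0.08 to 0.07. TNF stood at 0.07 ± 0.12 (SD, n = 4; adjusted p = 0.482) and IL6, itself a product of NF-kB activity, at -0.08 ± 0.15 (adjusted p = 0.546). Of 26 NF-kB signalling proteins 17 were measured and none passed in limma (0 without adjustment), with a median of 0.01. RELA, the subunit that activates transcription, stood at 0.18, 0.04, 0.04 and 0.06 on arrays 1 to 4 (mean 0.08 ± 0.07; adjusted p = 0.447). NFKBIE, an inhibitor that holds NF-kB in the cytoplasm, stood at -0.33, -0.18, -0.14 and 0.13. Its mean was -0.13 ± 0.19 (adjusted p = 0.380 in limma), and without array 3 it was -0.18.

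Other targets of NF-kB did not share 1 sign. Of 17 measured of 24 listed, IER3 passed with a positive and BCL2A1 with a negative value, and 15 did not pass (median 0.03; before adjustment, 5 of the 17 had p under 0.05). IER3, an early response gene of growth factors and NF-kB, stood at 0.62, 0.83, 0.65 and 0.98 on arrays 1 to 4 (mean 0.77 ± 0.17, SD, n = 4; limma adjusted p = 7.03e-05). BCL2A1, an anti-apoptotic member of the BCL2 family, stood at -0.62, -0.65, -0.46 and -0.49 (mean -0.56 ± 0.09; adjusted p = 0.000707). Both kept 1 sign on 4 of 4 arrays, and BCL2A1 overlapped the range of CXCL1. In the fit without moderation neither passed (adjusted p = 0.291 for IER3 and 0.357 for BCL2A1), and 0 of all genes did.

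Of 12 AP-1 and C/EBP factors, which can act beside NF-kB on chemokine promoters, 8 were measured and none passed in the shared component in limma (before adjustment, 2 had p under 0.05; median -0.05). In the alternating component JUNB (-0.30 ± 0.15, SD, n = 4; limma adjusted p = 0.0395) and FOSL2 (0.22 ± 0.04; adjusted p = 0.0364) passed with opposite signs. JUNB lost its call without array 2 (adjusted p = 0.169), and FOSL2 without array 2 (adjusted p = 0.152) or array 4 (adjusted p = 0.175). FOSL2 was averaged over 2 clones, whose shared means were -0.028 and -0.017. On the clone with the shared mean larger in size, the alternating component was 0.043 (limma adjusted p = 0.675). The 2 clones thus differed in the alternating component. Without the dye term neither passed (adjusted p = 0.105 for JUNB and 0.0923 for FOSL2). Of 18 factors that bind AU-rich elements or degrade mRNA 15 were measured and none passed in the shared component in limma (before adjustment, 1 had p under 0.05; median 0.00). TIAL1, an RNA-binding protein that represses translation, was negative in the alternating component (-0.22 ± 0.07; adjusted p = 0.0453) and lost the call without array 2 (adjusted p = 0.146) or array 4 (adjusted p = 0.220), and without the dye term (adjusted p = 0.105).

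**Figure D3:**
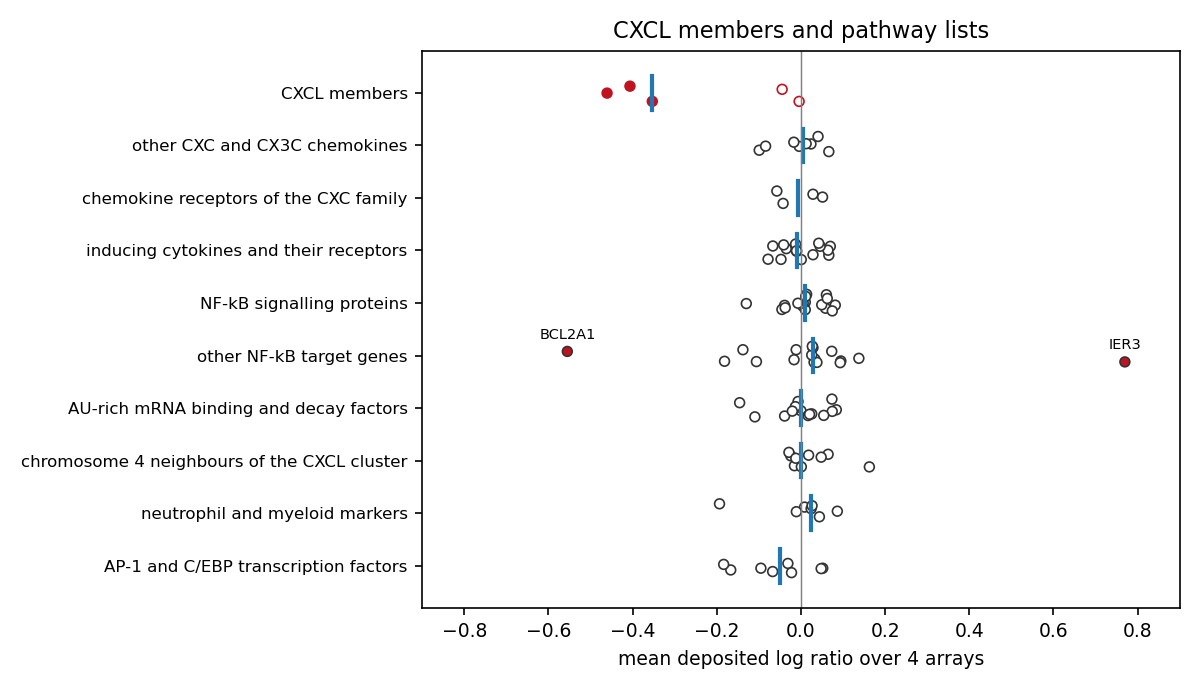
Mean log ratio over the 4 arrays (horizontal axis) of each measured gene, by list, with a blue bar at the list's median and filled points for genes past an adjusted p of 0.05 in limma. The 5 chemokines, chosen on these values, are in the top row. IER3 (0.77) and BCL2A1 (-0.56) are the filled points among the 9 other lists.

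Markers of other cells were read as log ratios, since the table holds no levels and cannot show whether a marker was present. Of 12 neutrophil and myeloid markers 7 were measured and none passed in limma (before adjustment, 1 had p under 0.05; from -0.19 to 0.09). S100A12 was lowest (-0.19 ± 0.30, SD, n = 4; adjusted p = 0.212) and S100A8 highest (0.09 ± 0.14; adjusted p = 0.525). Without array 3, S100A12 stood at -0.30 and S100A8 at 0.16, with array 1 then alone in its orientation. None of 3 fibroblast and 4 endothelial markers passed in the shared component in limma, with 1 of each under 0.05 before adjustment. TEK, an endothelial receptor, passed in the alternating component (-0.20 ± 0.19; adjusted p = 0.0439), not without array 2 (adjusted p = 0.174) or array 4 (adjusted p = 0.217) or the dye term (adjusted p = 0.216). In the shared component TEK stood at -0.16 over the 4 arrays and at -0.17 without array 3. Of 4 epithelial markers the keratin KRT8 passed with a positive value (0.39 ± 0.13; limma adjusted p = 0.00698), where 3.04% of all genes passed. Without moderation it did not pass (adjusted p = 0.423). The 4 epithelial markers ranged from -0.05 to 0.39, 2 with a negative and 2 with a positive mean.

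The exact kappaB site of the members was compared with the log ratios of other genes that hold it. Of 12483 measured genes 10084 had a promoter in the table, and 23 of these held GGGAATTTCC, the 5 members among them. The other 18 had a median of 0.01 and lay between -0.24 and 0.10, against a median of 0.01 over all 10084. COL7A1, the collagen of anchoring fibrils, was the 1 among the 18 that passed (-0.24 ± 0.08, SD, n = 4; limma adjusted p = 0.0279). That is 5.56% of the 18, where 3.08% of the 10084 passed. COL7A1 did not pass without the dye term (adjusted p = 0.102), and it stood at -0.28 without array 2 and at -0.20 without array 4. NFKBIA, the NF-kB inhibitor that NF-kB itself induces, was among the 18 at 0.07 ± 0.16 (adjusted p = 0.459), and NFKB1, the p50 precursor, at -0.04 ± 0.09 (adjusted p = 0.715). These 3 were named after their values had been seen. Within the members the site was likewise present in CXCL2 and CXCL6, whose means were 0.00 and -0.04, and in CXCL1, CXCL3 and CXCL5, whose means were -0.46, -0.41 and -0.35. Of the 4 pairs within a kind, CXCL1 and CXCL3 differed in mean by -0.05 ± 0.17 (SD over arrays), CXCL5 and CXCL6 by -0.31 ± 0.30, CXCL1 and CXCL2 by -0.46 ± 0.19, and CXCL2 and CXCL3 by 0.40 ± 0.03, each given as the first minus the second and with no test.

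The genes whose 4 log ratios were most like those of CXCL1 were found by Euclidean distance over the 4 arrays among all 12483 genes. The nearest 6 outside the members were RAB34, a small GTPase (distance 0.20), the receptor phosphatase PTPRF (0.21), the deiodinase DIO2 (0.22), BCL2A1 (0.23), the spindle protein FAM83D (0.24) and the ecto-nucleotidase NT5E (0.25). RAB34 stood at -0.51, -0.54, -0.59 and -0.47 on arrays 1 to 4, and DIO2 at -0.51, -0.42, -0.46 and -0.49. The PTPRF value averages 2 clones that disagree in size (-0.84 and -0.08). CXCL3 lay at a distance of 0.31, with 14 genes closer to CXCL1, and CXCL5 at 0.33, with 22 closer. CXCL2 and CXCL6 lay at 0.97, with 5723 and 5819 genes closer. The distance is mostly one of level, and the levels chose the members, so these places in the order are a description.

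**Figure D4:**
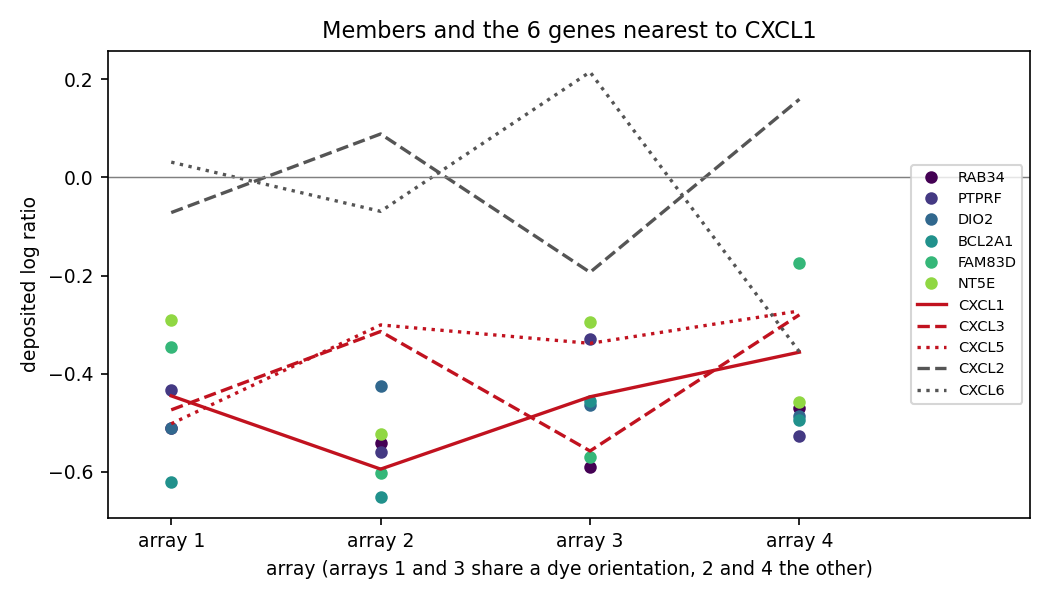
Log ratio (vertical axis) on each array of the 5 chemokines (lines, red for CXCL1, CXCL3 and CXCL5, grey for CXCL2 and CXCL6) and of the 6 genes nearest to CXCL1 (points). The 6 genes lie below -0.17 on all arrays, as CXCL1 does. Of the 6, only FAM83D has the order of CXCL1 from array to array. The grey lines alternate around 0 in opposite phase.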

How the data were processed

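The deposited values are log ratios between the channels of an array, in 1 column per array. Per the labels' series text, the authors took scanner files through ArrayMagic with variance-stabilizing normalization (VSN) and tested with limma. Versions, spot filters and spot averaging are unstated. VSN shrinks the ratios of dim spots, and without intensities dim probes could not be removed. Array medians lay between -0.0022 and 0.0174 and SDs between 0.173 and 0.193.

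Probes with 1 gene symbol in the platform annotation (20976 of 26629; 848 had several) were averaged per gene, with 0 symbols changed through the GRCh38.p14 gene table. limma 3.58.1 (R 4.3.3) fitted 2 coefficients, shared and dye orientation, leaving 2 residual degrees of freedom. P-values were two-sided and adjusted by Benjamini-Hochberg over all genes, with a threshold of 0.05, and the fit was tested on simulated data. The ± values are SDs over arrays and hold the other component too. The members and lists were chosen with earlier results of these data known. Named were the members, every called list gene or else the 2 of a list with the largest mean in size, and the 6 genes nearest to CXCL1. Promoters were aligned globally (match 1, mismatch -1, gap opening -2, extension -0.5). Alternatives were no dye term, median centring, quantile normalization, scaling by median absolute deviation, the largest probe or the median over probes per gene, robust moderation (statmod 1.5.0), no moderation, a threshold of 0.1, and leaving out each array. Leaving out 1 array leaves 1 array in its orientation. The residual spread of that fit then comes only from the 2 arrays of the other orientation, so a call lost or gained there says little about the gene. Calls lost are named with their genes, while calls gained also occurred and are not named.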

Additional observations from a re-analysis of the deposited data

Results flagged for a closer look

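In 29 sets of 4 arrays (the members, the CXCL5 clones and the other named list, marker and kappaB site genes), 3 had a single array far from the others, where chance gives about 1 in 20. RELA was highest on array 1 (0.182). ANKRD17 was lowest on array 4 (-0.0353). S100A8 was lowest on array 3 (-0.126). None of the 5 chemokines and neither CXCL5 clone was among them.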

How the results depend on the processing

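The means of CXCL1, CXCL3 and CXCL5 were negative under every normalization, summary of probes and left-out array tried. With an array left out this sign was fixed in advance, since each gene was negative on all 4 arrays. CXCL1 and CXCL3 have 1 probe each, so the summary of probes could not change them. These are also the values that chose the members, so the signs are no test. With 1 array left out the means of CXCL1, CXCL3 and CXCL5 lay between -0.52 and -0.40, between -0.43 and -0.39, and between -0.39 and -0.31. Read in the alternating component, they were 0.015 for CXCL1 (sign reversed), -0.11 for CXCL3 and -0.067 for CXCL5. The means of CXCL2 (-0.035 to 0.026) and CXCL6 (-0.12 to 0.027) took either sign when 1 array was left out. The alternating components with 1 array left out ranged from -0.045 to 0.074 for CXCL1, from -0.16 to -0.098 for CXCL2 and from 0.096 to 0.24 for CXCL6.

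Of the 100 measured list genes, 1 positive and 1 negative passed in the shared component. With the largest probe per gene these were 3 and 2, without moderation 0 and 0 (11 had p under 0.05 before adjustment in the limma fit with moderation), at a threshold of 0.1 there were 3 negative ones, and in the alternating component 2 negative ones. With 1 array left out, 1 to 3 were positive and 1 to 6 negative. In the alternating component 1 positive and 2 negative genes passed. Without the dye term these were 0 and 0, at a threshold of 0.1 they were 6 and 12, and with 1 array left out 0 to 7 and 0 to 17. Positive ones numbered 0 with the largest probe per gene and 2 with the median over probes, and negative ones 1 after median centring and 0 without moderation. With 1 array left out the counts changed in both components and were highest without array 1 or array 3. The calls over all genes in the shared component were likewise most numerous without those arrays, and the cause was not tested. In the shared component the means of TIAL1 (-0.015 to 0.048) and JUNB (-0.024 to 0.13), neither called, changed sign with 1 array left out. No paired analysis was possible because each array is already the ratio of 1 pair of cultures. The number of arrays limits the precision of every value.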
